A study of Mus musculus with 2 samples.

Results

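Glycolysis splits glucose into pyruvate in the cytosol, and in fast muscle much of that pyruvate is reduced to lactate and exported. Glycogen is the fibre's own glucose store: synthase and branching enzyme build it, and phosphorylase, switched on by phosphorylase kinase, takes it apart. The 38 genes described here encode the enzymes, transporters and regulators of these routes and were chosen by gene symbol, not by their levels. All 38 had reads, out of 15508 annotated genes with reads in the series. Transcripts of the gastrocnemius, a calf muscle, were read by long-read RNA sequencing in 2 libraries of a single group, and no conditions were compared. The mice were male B6CASTF1/J, a first-generation hybrid strain, aged 36 days, and each library was made from 2 µg of total RNA with spike-in RNAs added. The labels number the libraries as biological replicates 1 and 2 from animals of different names but give them the same donor entry, so the spread below may be partly technical.

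Replicate 2 held 1374068 reads in annotated genes and replicate 1 held 1036455. Levels are given in CPM, the reads of a gene scaled to 1000000 reads in annotated genes. A long read stands for about 1 cDNA molecule, so CPM were not divided by length, and transcript lengths are given beside comparisons of paralogues, each the longest version of the spliced model with most reads when incomplete and genomic models are left out. With 3 reads taken as the limit, a gene without reads could lie at up to 2.18 CPM in replicate 2 or 2.89 CPM in replicate 1. Intervals and this limit cover counting error only, because the tables carry no molecular identifiers. The 5 muscle fibre markers checked against the tissue label (Ckm, Acta1, Mylpf, Tnnt3 and Myh4) summed to 178452 and 192260 CPM in replicates 2 and 1. Markers of some other cells differed between the libraries: 4 adipocyte genes summed to 379 and 139.9 CPM, 4 fibroblast genes to 793 and 3175 CPM, 3 Schwann cell genes to 504 and 1462 CPM, and 3 smooth muscle genes to 39.3 and 89.7 CPM, in replicates 2 and 1. Not every gene followed its sum: the fibroblast gene Pdgfra had 7 and 4 reads and the adipocyte gene Plin1 had 1 and 3. Endothelial genes summed to 13.1 and 18.3 CPM, blood genes to 290 and 219 CPM, and macrophage genes to 6.55 and 20.3 CPM. In bulk tissue, fewer cells of a type and less RNA per cell cannot be told apart.

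The 38 genes took 2.86% of gene reads in replicate 2 (Wilson 95% interval 2.83 to 2.88) and 2.71% in replicate 1 (2.68 to 2.74), a mean sum of 27823 ± 1040.0 CPM (SD, n = 2, as for all means below). Their levels ran from single reads to 8619 CPM, that of Ldha in replicate 2. By mean level, 6 genes were above 1000 CPM, 16 lay between 100 and 1000 CPM, 9 between 10 and 100 CPM and 7 below 10 CPM. The genes Ldha, Pgam2, Tpi1 and Pygm together made up 73.5% of the summed level in replicate 2 and 63.2% in replicate 1.

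**Figure D1:**
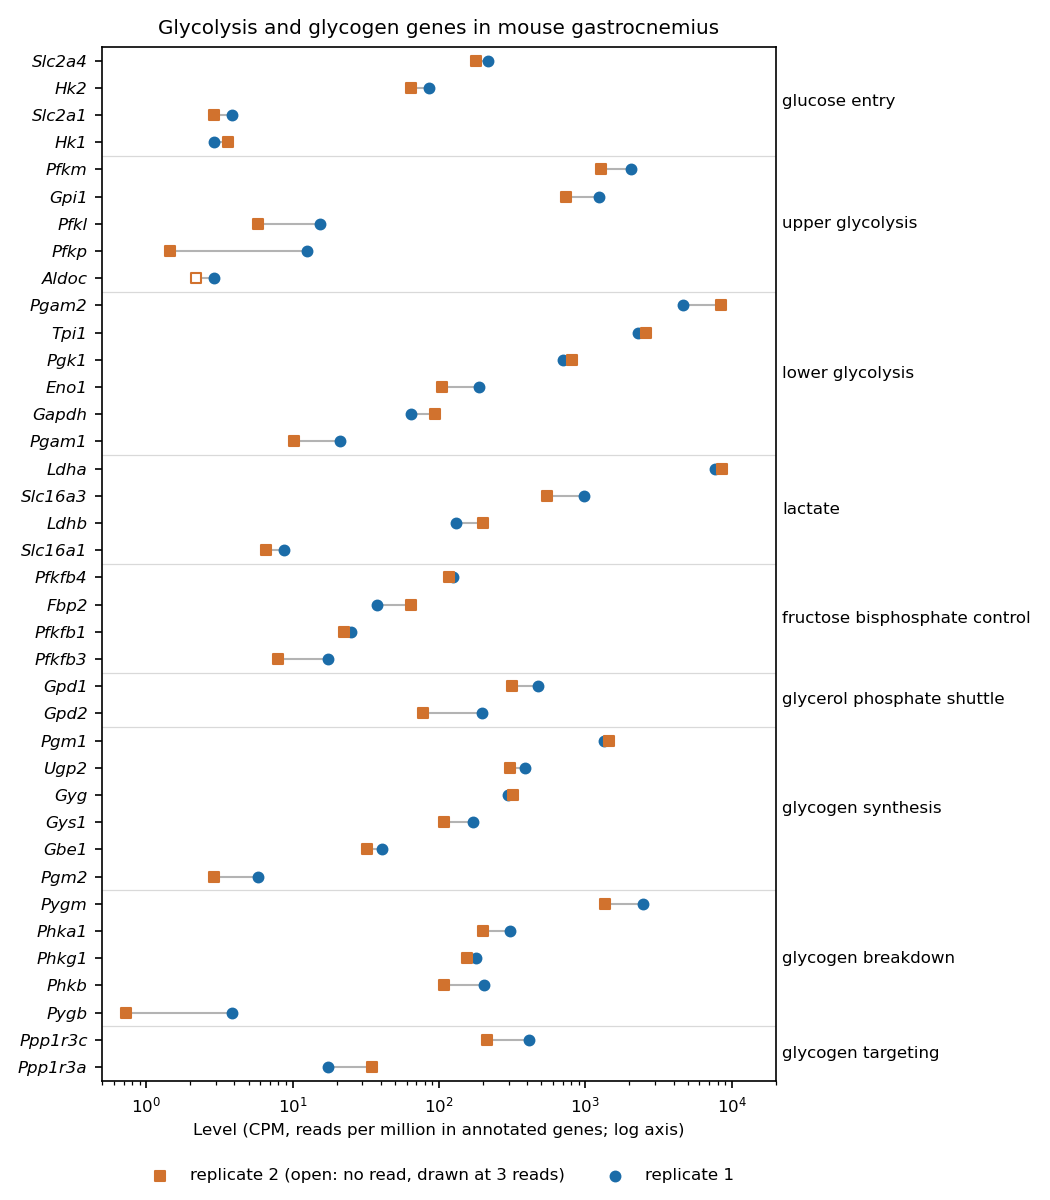
Level of each of the 38 genes in replicate 2 (squares) and replicate 1 (circles), in CPM on a log axis, grouped by role and ordered by mean within each role. The muscle forms Slc2a4, Hk2, Pfkm, Pgam2 and Pygm stand above their paralogues in both libraries, and Ldha and Pgam2 reach 8619 and 8425 CPM in replicate 2.

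Among the genes of glucose entry, the muscle forms held most reads. Slc2a4, the insulin-responsive glucose transporter GLUT4 (2524 bases), had 178 CPM in replicate 2 and 217 CPM in replicate 1, a mean of 198 ± 27.4 CPM. Slc2a1, the widespread transporter GLUT1 (3260 bases), had 4 reads in each library. Slc2a4 thus held 98.4% and 98.3% of the reads of the pair in replicates 2 and 1. Hk2, the hexokinase of insulin-sensitive tissues (5513 bases), had 64.0 and 84.9 CPM, and Hk1, the hexokinase typical of brain (4278 bases), had 5 and 3 reads. Of the 88 Hk2 reads in each library, 80.7% in replicate 2 and 54.5% in replicate 1 were in single-exon models. The levels of Hk2 and Slc2a4 did not overlap: the lower Slc2a4 value was above the higher Hk2 value.

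In the upper part of glycolysis, Gpi1, which turns glucose 6-phosphate into fructose 6-phosphate, had 734 CPM in replicate 2 and 1237 CPM in replicate 1 (986 ± 355 CPM). Pfkm, the muscle form of phosphofructokinase that commits the sugar to glycolysis, had 1271 and 2051 CPM (1661 ± 552 CPM). The liver form Pfkl had 5.82 and 15.4 CPM, and the platelet form Pfkp had 1.46 and 12.5 CPM. Pfkm held 99.4% and 98.7% of the reads of these 3 genes, at a length of 2879 bases for Pfkm-201 against 3730 for Pfkl and 4145 for Pfkp. Aldoc, the aldolase typical of brain, had 0 and 3 reads, at or under the limit of 3 reads.

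In the lower part, Pgam2, the muscle phosphoglycerate mutase (ENSMUSG00000020475.3, chr11:5801640-5803733, minus strand, mm10), had 8425 CPM in replicate 2 and 4659 CPM in replicate 1 (6542 ± 2663 CPM), which put it at ranks 13 and 18 of all genes. The brain form Pgam1 had 10.2 and 21.2 CPM, so Pgam2 held 99.9% and 99.5% of the reads of the pair, with 840 bases against 1775. Tpi1, triose phosphate isomerase, had 2589 and 2288 CPM (2438 ± 213 CPM). Pgk1, the phosphoglycerate kinase that makes the first ATP of the route, had 811 and 707 CPM. Eno1, the enolase that most tissues use, had 104 and 186 CPM. Tpi1 and Pgk1 differed between the libraries by less than Pgam2 did.

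The sum of the 4 genes that make and move lactate was 9373 CPM in replicate 2, against 8823 CPM in replicate 1. Ldha, the muscle subunit of lactate dehydrogenase (ENSMUSG00000063229.15, chr7:46841475-46855627, plus strand), had the highest mean of the 38 genes, with 8619 CPM in replicate 2 and 7714 CPM in replicate 1 (8166 ± 640.0 CPM, ranks 12 and 14 of all genes). Ldhb, the heart subunit (1304 bases against 1588 for Ldha), had 201 and 130.3 CPM and held 2.28% (2.03 to 2.56) and 1.66% (1.40 to 1.96) of the reads of the pair. Slc16a3, the lactate exporter MCT4 of fast fibres, had 547 and 971 CPM (759 ± 299.9 CPM). Slc16a1, the transporter MCT1 of oxidative tissues, had 9 reads in each library, so Slc16a3 held 98.8% and 99.1% of the pair.

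Fructose 2,6-bisphosphate, which activates phosphofructokinase, is made and removed by the PFKFB enzymes. Counting all models, Pfkfb4 led the 3 of them, with 117 and 124 CPM in replicates 2 and 1, followed by Pfkfb1 with 22.6 and 25.1 CPM and Pfkfb3 with 8.01 and 17.4 CPM. Pfkfb1 and Pfkfb3 did not overlap either. Fbp2, the muscle fructose bisphosphatase that runs the opposite way, had 64.0 and 37.6 CPM. In the glycerol phosphate shuttle, which passes cytosolic electrons to mitochondria, the cytosolic enzyme Gpd1 had 313 and 474 CPM (393 ± 114 CPM). The mitochondrial enzyme Gpd2 had 77.9 and 196 CPM, which left Gpd1 with 80.1% (76.5 to 83.2) and 70.7% (67.3 to 74.0) of their summed reads.

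Among genes of glycogen synthesis, Pgm1, a phosphoglucomutase that links glucose 6-phosphate and glucose 1-phosphate, had 1457 CPM in replicate 2 and 1344 CPM in replicate 1 (1400.5 ± 79.9 CPM). Its relative Pgm2 had 4 and 6 reads at almost the same length (2369 bases against 2371). Ugp2, which makes UDP-glucose, had 303 and 386 CPM, and Gyg, the glycogenin that primes new glycogen, had 322 and 298 CPM. Gys1, the muscle glycogen synthase, had 108 and 169.8 CPM, and the branching enzyme Gbe1 had 32.0 and 40.5 CPM. Mean levels thus fell in the order Pgm1, Ugp2, Gyg, Gys1 and Gbe1, where Ugp2 and Gyg overlapped and the other neighbours did not.

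On the side of breakdown, Pygm, the muscle glycogen phosphorylase, had 1354 CPM in replicate 2 and 2472 CPM in replicate 1 (1913 ± 790.2 CPM). The brain form Pygb had 1 and 4 reads, and Pygm held 99.9% and 99.8% of the reads of the pair. The phosphorylase kinase subunits ranged from 108 to 304 CPM over both libraries. The regulatory subunit Phka1 had 199 and 304 CPM, the regulatory subunit Phkb had 108 and 203 CPM, and the catalytic subunit Phkg1 had 154 and 179 CPM. Counting all models, Phka1 was the highest of the 3 in each library, while Phkb and Phkg1 changed places between the libraries. Outside incomplete and genomic models, Phka1 had 144 and 266 reads, Phkb 82 and 164, and Phkg1 160 and 154, in replicates 2 and 1. Phka1 then led in replicate 1 only. Ppp1r3c, which targets protein phosphatase 1 to glycogen, had 212 and 413 CPM, and Ppp1r3a, the muscle glycogen-targeting subunit, had 34.9 and 17.4 CPM. In all 10 sets compared (9 sets of related genes and the Gpd1 and Gpd2 pair), the same gene led in both libraries. When incomplete and genomic models were left out, the leader changed in 1 set: Pfkfb1, with 27 and 26 remaining reads in replicates 2 and 1, then stood above Pfkfb4 with 5 and 8. Hk2 kept its lead on few reads, with 5 and 21 remaining against 3 and 2 for Hk1.

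Splice structure was read from the chain of junctions of each transcript model. Models are annotated, new combinations of annotated splice sites, new junctions, incomplete matches to an annotated transcript, or genomic. The 38 genes had 675 models in replicate 2 and 650 in replicate 1, and 24 genes had at least 50 reads in each library. In 5 of these 24 the leading model with more than 1 exon was not an annotated transcript (Pfkm, Eno1, Phkb, Gpd2 and Pfkfb4), and in the other 19 it was.

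Pfkm (ENSMUSG00000033065.14, chr15:98092589-98132451, plus strand) was led by a 22-exon model that begins inside the annotated gene, at position 98112034 in both libraries. It held 1054 of 1746 Pfkm reads in replicate 2 (60.4%) and 1473 of 2126 in replicate 1 (69.3%). The annotated Pfkm-201, of 23 exons, held 128 and 323 reads (7.33% and 15.2%). The leading model starts 120 bases before the annotated exon 2 (98112154 to 98112246) and 128 bases before the annotated start codon at 98112162, so it keeps the whole coding sequence of Pfkm-201 and replaces its first exon, which is noncoding. Among reads of models with the junction that leaves exon 2, 87.9% in replicate 2 (86.0 to 89.6; 1249 reads) and 80.5% in replicate 1 (78.6 to 82.2; 1864 reads) were in models with no exon further upstream. Because the end positions belong to models and not to single reads, where each read begins is not known. The tables class the 22-exon model as an incomplete match, so 79.3% and 81.6% of Pfkm reads fall in that class.

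RefSeq lists 4 starts for Pfkm, and the nearest, at 98112060, is 26 bases downstream of the start of the leading model. The promoter windows of that start and of the start nearest to Pfkm-201 are shown because the leading model and Pfkm-201 start near them. Each runs from 250 bases before to 50 bases after a RefSeq start (GRCm38.p6). Capitals mark matches to CANNTG, the E-box core bound by basic helix-loop-helix factors, or to ACGTG, the core of hypoxia response elements.
Window chr15:98111810-98112109, plus strand: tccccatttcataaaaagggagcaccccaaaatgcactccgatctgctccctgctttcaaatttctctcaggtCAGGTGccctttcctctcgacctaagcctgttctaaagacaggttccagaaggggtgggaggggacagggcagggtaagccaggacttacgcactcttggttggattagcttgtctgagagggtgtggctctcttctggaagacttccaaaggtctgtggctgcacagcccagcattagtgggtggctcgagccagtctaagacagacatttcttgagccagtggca
Window chr15:98108221-98108520, plus strand: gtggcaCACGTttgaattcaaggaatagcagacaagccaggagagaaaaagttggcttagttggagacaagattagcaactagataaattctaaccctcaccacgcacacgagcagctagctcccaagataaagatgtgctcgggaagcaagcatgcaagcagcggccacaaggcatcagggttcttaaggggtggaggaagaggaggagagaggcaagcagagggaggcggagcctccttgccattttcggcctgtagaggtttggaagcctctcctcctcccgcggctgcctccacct
The downstream window holds a CANNTG match and the upstream one an ACGTG match in the reverse orientation. TATAAA (the TATA box), the TEAD core CATTCC and the MEF2 motif, searched on both strands, had no match in either. The window of another RefSeq start, chr15:98108306-98108605, overlaps the upstream one and holds a CANNTG match. That match is cut off by the end of the upstream window shown. The lack of CANNTG there thus depends on where the window ends. Over all 32851 windows of the table, 72.3% held CANNTG, 19.6% ACGTG, 13.6% TATAAA, 14.7% CATTCC and 3.19% the MEF2 motif. ACGTG can lie inside CANNTG (as in CACGTG), so these matches overlap in part. Of the 50 windows that 36 of the 38 genes had in the table, 35 held CANNTG, 23 ACGTG, 4 TATAAA, 5 CATTCC and 3 the MEF2 motif. Windows of 1 gene overlap, so these counts are a description and were not tested.

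**Figure D2:**
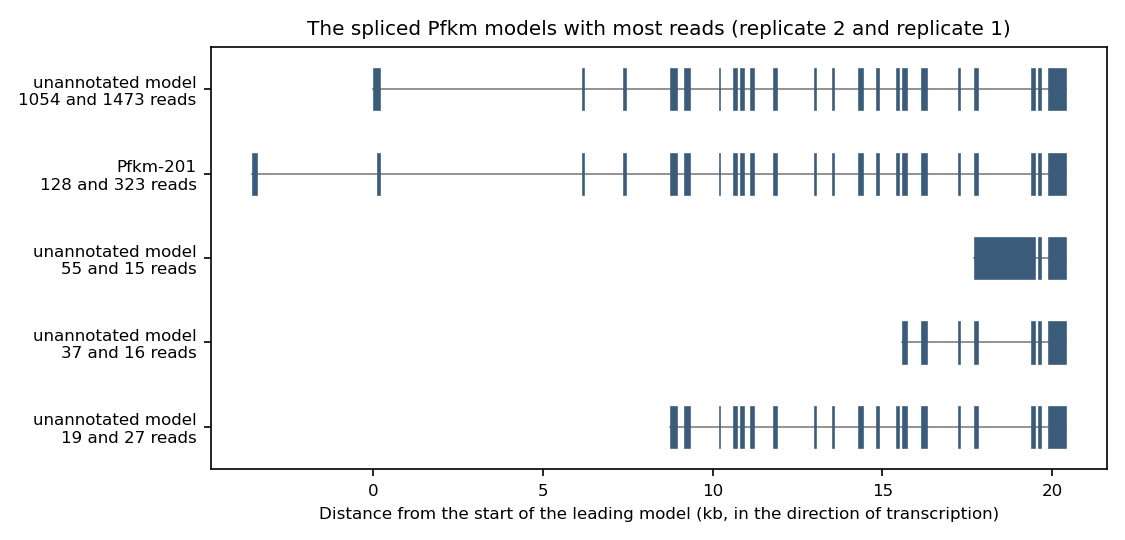
Exons (boxes) of the 5 spliced Pfkm models with most reads, by distance in kb from the start of the leading model, with reads in replicate 2 and replicate 1 at the left. The leading model (1054 and 1473 reads) starts 120 bases before exon 2 of Pfkm-201 (128 and 323 reads), which has its own upstream first exon; the other 3 models cover only part of the gene.

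For the other genes, the start of the leading spliced model was also set against RefSeq. These starts belong to models and not to single reads. In 19 of the 24 genes the leading spliced model was annotated. For some of these, such as Gpi1 and Pgk1, its start was the annotated 5′ end of the gene. Closeness to RefSeq then compares annotations and does not show where reads begin. Of the 22 genes that reached 50 reads in both libraries and a RefSeq start in the table, 18 had a leading spliced model starting within 100 bases of it. Tpi1, Gyg and Ugp2 were 138, 201 and 152 bases away. Pfkfb4 was the exception, at 15456 bases: its leading spliced model, of 9 exons, started far inside the gene and held 4 reads in replicate 2 and 29 in replicate 1. No Pfkfb4 read was in an annotated model, and the largest, a 3′ end model of 740 bases with 1 exon (chr9:109031458-109032197), held 140 and 64 reads.

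Phka1 (ENSMUSG00000034055.16, chrX:102513975-102644246, minus strand) was split between a pair of annotated transcripts. Phka1-202, of 33 exons, had 78 and 162 reads in replicates 2 and 1, and Phka1-201, of 32 exons, had 47 and 78. They differ by a coding exon of 177 bases, or 59 codons, at chrX:102557096-102557272. In rabbit, the form without such an exon is known from slow muscle and heart. The exon was kept in 60.6% of the reads that tell the forms apart in replicate 2 (52.9 to 67.9; 160 reads) and 69.0% in replicate 1 (63.4 to 74.1; 287 reads). The intervals overlap, and both forms were present in both libraries. The exon is shown, 5′ to 3′ on the minus strand from the M21 transcript, in capitals between 18 bases of its neighbours.
Phka1 exon: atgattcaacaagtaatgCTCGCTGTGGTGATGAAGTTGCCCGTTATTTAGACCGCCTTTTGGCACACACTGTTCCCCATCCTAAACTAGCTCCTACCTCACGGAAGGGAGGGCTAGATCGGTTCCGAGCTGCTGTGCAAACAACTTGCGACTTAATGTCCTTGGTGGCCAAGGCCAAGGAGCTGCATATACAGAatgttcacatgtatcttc

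Phkb (ENSMUSG00000036879.15, chr8:85840959-86061376, plus strand) was led by a 31-exon model that departs from Phkb-201 at 2 places and held 67 of 148 reads in replicate 2 and 148 of 210 in replicate 1. Its chain of junctions was classed both as a new combination of annotated splice sites and as holding new junctions. The model has an unannotated exon of 91 bases at chr8:86025198-86025288 where Phkb-201 has an annotated exon, also of 91 bases, at chr8:86026457-86026547. The unannotated exon was used by 95.5% of informative reads in replicate 2 (89.0 to 98.2; 89 reads) and 97.7% in replicate 1 (94.3 to 99.1; 176 reads). Near the 5′ end the model skips the exon of Phkb-201 at chr8:85843004-85843112, which holds its annotated start codon at 85843061. That exon was skipped in 98.7% (92.9 to 99.8; 76 reads) and 98.1% (94.6 to 99.4; 159 reads). At each of the 2 places, nearly all reads informative there thus differed from Phkb-201. Reads informative at both places were not counted.

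Phkg1, the third subunit, mostly followed its annotation, with 129 and 124 reads in Phkg1-201 in replicates 2 and 1. An exon of 66 bases at chr5:129869461-129869526 was kept in 94.0% (89.3 to 96.7; 167 reads) and 92.3% (87.3 to 95.4; 169 reads). The few skipping reads, 10 and 13, were found in both libraries.

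Eno1 (ENSMUSG00000063524.13, chr4:150236721-150248879, plus strand) was led by a 12-exon model with 108 of 143 reads in replicate 2 and 173 of 193 in replicate 1. It differs from Eno1-202, with 16 and 14 reads, in a single exon of 59 bases. The leading model takes the exon at chr4:150241767-150241825, which the annotation holds only in shorter transcripts such as Eno1-205, and Eno1-202 takes the one at chr4:150242122-150242180. The share of the exon of the leading model was 86.5% in replicate 2 (79.6 to 91.3; 133 reads) and 92.6% in replicate 1 (88.0 to 95.6; 190 reads). Both exons are shown from the M21 transcripts, with capitals at the 29 positions where they differ; they share 30 of 59 bases, or 50.8%.
Eno1 leading exon: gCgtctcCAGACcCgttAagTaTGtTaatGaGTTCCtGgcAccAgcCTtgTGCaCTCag
Eno1-202 exon: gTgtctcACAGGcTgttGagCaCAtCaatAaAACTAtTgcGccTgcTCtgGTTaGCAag
Eno1b, a copy of the gene on another chromosome, had 14 and 18 reads, so the Eno1 count could be split with that copy.

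Gpd2 (ENSMUSG00000026827.12, chr2:57237635-57370719, plus strand) was led by an 18-exon model with a new junction in the last exon of Gpd2-201, joining 57367473 to 57369463 across 1989 bases. It held 67 of 107 reads in replicate 2 and 149 of 203 in replicate 1. The last coding base of Gpd2-201 is at 57367474, so the intron begins on that base and takes out the annotated stop codon. Among reads that reach this exon by its annotated junction, 96.8% in replicate 2 (91.0 to 98.9; 94 reads) and 93.4% in replicate 1 (89.1 to 96.1; 198 reads) had an intron there. Of the spliced reads, 87.9% and 90.3% used the acceptor of the leading model. The end of the coding sequence is shown from the M21 transcript (chr2:57367443-57367492) with the stop codon in capitals; the intron begins with the g just before them, and its terminal bases were GT and AG.
Gpd2 last coding bases: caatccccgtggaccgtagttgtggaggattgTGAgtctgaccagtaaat

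First exons divided the reads of 3 further genes. Pfkfb1 used the first exon of Pfkfb1-201 in 21 of 27 informative reads in replicate 2 (77.8%, 59.2 to 89.4) and 16 of 26 in replicate 1 (61.5%, 42.5 to 77.6), and otherwise that of Pfkfb1-202. In rat, this gene has a muscle and a liver promoter with separate first exons. The coding parts of the mouse pair, on chromosome X (plus strand, start codon in capitals), show that the proteins begin differently, over 28 and 97 bases.
Pfkfb1-201, chrX:150590057-150590084: ATGgaagaaaaagcctctaagagagcag
Pfkfb1-202, chrX:150594678-150594774: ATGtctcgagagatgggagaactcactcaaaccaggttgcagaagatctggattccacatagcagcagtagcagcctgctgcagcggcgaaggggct
Ugp2 used the first exon of Ugp2-202, which carries 19 coding bases, in 73.5% (68.8 to 77.7; 374 reads) and 78.1% (73.7 to 82.0; 384 reads). Pgm1 used that of Pgm1-201 (246 coding bases) in 96.5% (94.9 to 97.6; 719 reads) and 96.1% (94.8 to 97.2; 1010 reads), and otherwise that of Pgm1-202 (300 coding bases). For all 3 genes the intervals of the libraries overlapped. Slc16a3 kept the noncoding exon 2 of Slc16a3-208, of 95 bases, in 86.0% (83.1 to 88.4; 649 reads) and 90.6% (88.6 to 92.3; 947 reads), where the intervals did not overlap.

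**Figure D3:**
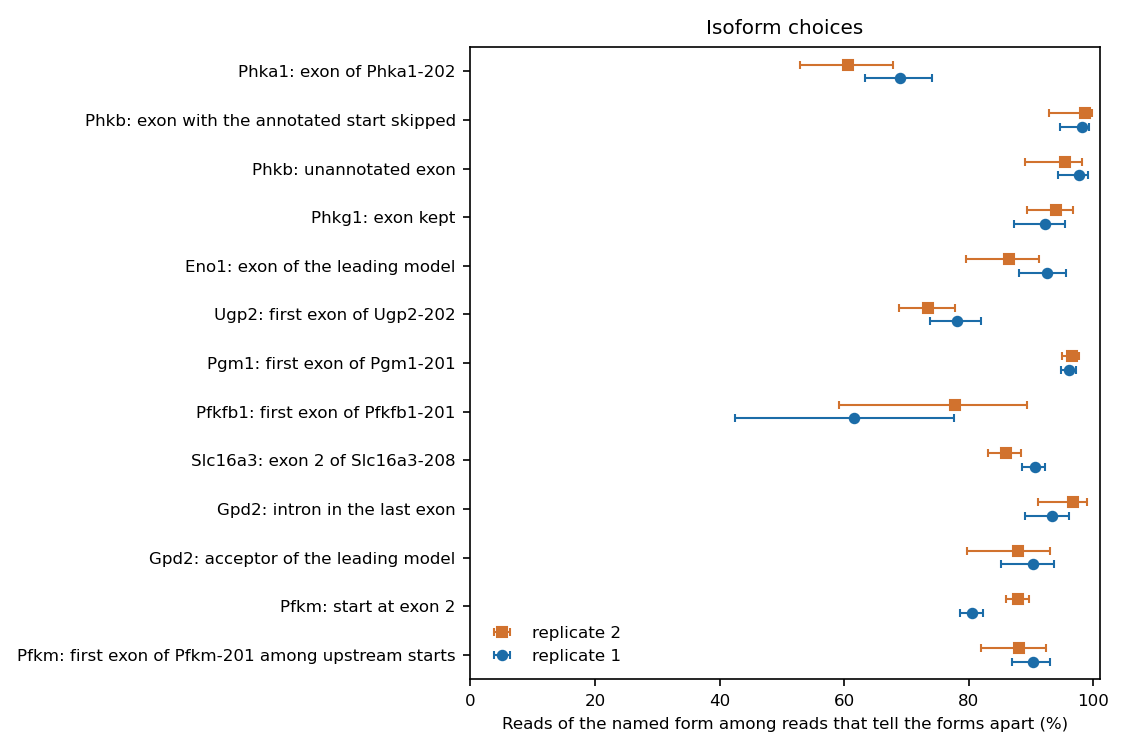
Share of reads with the named form among reads that tell the forms apart, in percent, for replicate 2 (squares) and replicate 1 (circles), with Wilson 95% intervals as bars. The intervals of the libraries overlap for every choice plotted except the start of Pfkm at exon 2 (87.9% and 80.5%) and exon 2 of Slc16a3 (86.0% and 90.6%).

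Among models with more than 1 exon, the other well-covered genes were led by annotated transcripts. Ldha-202 held 11181 of 11843 Ldha reads in replicate 2 and 7691 of 7995 in replicate 1, and Pgam2-201 held 9736 and 4210 Pgam2 reads. Tpi1-205 held 82.3% and 88.4% of Tpi1 reads. Gpi1-201 held 65.9% and 86.9% of its gene, Pgk1-201 56.4% and 80.5%, Pygm-201 31.5% and 58.0%, and Gys1-201 37.2% and 61.4%.

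The leading form of most genes took a smaller share in replicate 2. Of 24 genes tested (two-sided Fisher exact test, Benjamini-Hochberg adjusted over 1834 genes, adjusted p under 0.05 and at least 10 percentage points), 15 were called, 12 of them with a lower share in replicate 2. Over all genes tested, 30.5% were called and 20.0% were called lower in replicate 2. The median difference, replicate 2 minus replicate 1, was -11.2 points for the 24 genes and -3.79 points for all. The called genes with a lower share were Pgm1 (32.7% in replicate 2 and 66.5% in replicate 1), Gpd1 (35.1% and 69.0%), Pygm, Phkb (45.3% and 70.5%), Gys1, Pgk1, Phka1 (28.5% and 51.4%), Gpi1, Slc2a4 (48.2% and 67.6%), Gyg (54.4% and 72.2%), Eno1 (75.5% and 89.6%) and Slc16a3 (69.2% and 80.8%). The 3 called genes with a higher share in replicate 2 were led by single-exon groups: Pfkfb4 (87.0% and 49.6%), Gapdh (36.9% and 13.4%) and Ppp1r3c (62.9% and 49.5%). When incomplete and genomic models were left out, 2 of 22 genes were called, Gapdh and Pfkm.

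Single-exon models took a larger share in replicate 2. They held 9.31% of the reads of the 38 genes in replicate 2 (9.03 to 9.60) and 4.54% in replicate 1 (4.30 to 4.79), against 16.5% and 7.70% over all annotated genes. Their share was higher in replicate 2 in 24 of the 24 genes, and the share of annotated, new-combination and new-junction models was lower in 23 of 24. For Pgm1, a single-exon group at the 3′ end (620 bases, chr4:99986675-99987294) held 1074 of 2002 reads in replicate 2 and 251 of 1393 in replicate 1. For Gpd1, one of 1815 bases held 243 and 105 reads. Hk2 had single-exon groups at both ends of the gene, with 35 and 24 reads at the 3′ end and 34 and 24 reads at the 5′ end. Incomplete matches held 20.0% (19.6 to 20.4) of the reads of the 38 genes in replicate 2 and 16.8% (16.4 to 17.2) in replicate 1, against 16.1% and 11.0% over all genes. This class includes the 22-exon Pfkm model, which keeps the whole coding sequence. That model alone held 1054 of the 39241 reads of the 38 genes in replicate 2 and 1473 of 28075 in replicate 1. The share of incomplete matches without that model was not computed. It differed widely between members: in replicates 2 and 1 it was 4.75% and 3.01% for Ldha and 61.4% and 24.1% for Pgm1.

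**Figure D4:**
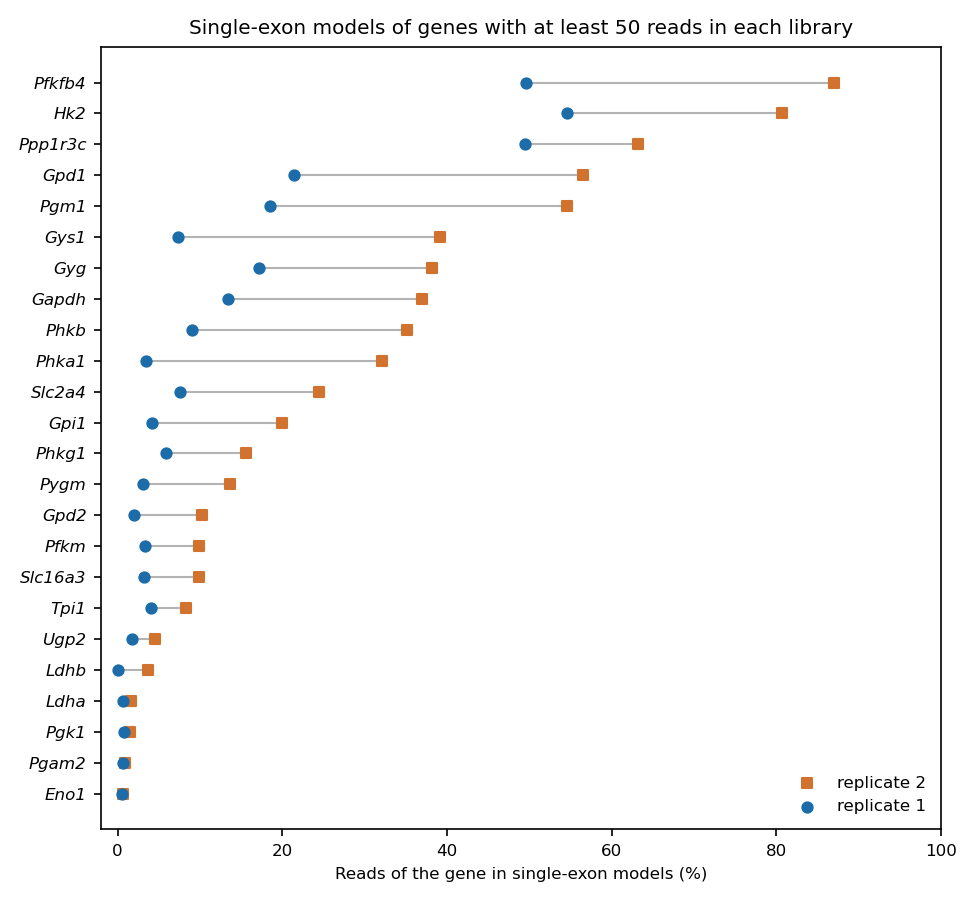
Share of each gene's reads in single-exon models, in percent, for the 24 genes that reached 50 reads in both libraries, in replicate 2 (squares) and replicate 1 (circles). Every square lies to the right of its circle, from Eno1 near 0 to Pfkfb4 at 87.0% and 49.6%.

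Gene totals were compared between the libraries with a two-sided exact binomial test of the pair of counts, Benjamini-Hochberg adjusted over 8339 genes with at least 10 reads in sum. The test compares these libraries and has no replicate check. A call needed a 2-fold difference and an adjusted p under 0.05. Of 34 members tested, 2 were called, both lower in replicate 2, and 0 were higher; 26 had an unadjusted p under 0.05. Over all genes, 5.76% were called higher and 12.9% lower in replicate 2. Gpd2 had 107 reads in replicate 2 and 203 in replicate 1, a log2 ratio of -1.33 (adjusted p = 5.92e-14, exact binomial test). Pfkp had 2 and 13 reads, a log2 ratio of -2.84 (adjusted p = 0.00475, exact binomial test). By the same test, 2 of 4 fibroblast, 2 of 3 Schwann cell and 2 of 3 smooth muscle genes were called lower in replicate 2, and 3 of 3 adipocyte genes tested were called higher. No endothelial, blood or macrophage gene tested was called. Their part in the calls of members was not tested. The 4 members with under 10 reads in sum, Hk1, Slc2a1, Aldoc and Pygb, were not tested.

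Without the fold threshold, 21 of the 34 members had an adjusted p under 0.05 (30.5% of all genes did), 8 of them higher and 13 lower in replicate 2. The median log2 ratio was -0.41 for the 34 members and -0.28 for all 8339 genes. Scaled by TMM, the median of all genes was 0.01, and 5 members were called, 3 higher (Pgam2, Fbp2 and Ppp1r3a) and 2 lower (Gpd2 and Pfkp) in replicate 2, against 10.7% of all genes called higher and 6.96% called lower. The largest differences among members above 100 CPM in both libraries were those of Ppp1r3c, Phkb, Pygm, Pgam2, Eno1 and Slc16a3, with log2 ratios of -0.96, -0.91, -0.87, 0.85, -0.84 and -0.83. Without genomic models the ratio of Ppp1r3c was 0.10. Its single-exon group of 183 and 212 reads was classed as incomplete in replicate 2 and as genomic in replicate 1. Leaving out genomic models thus removed this group from replicate 1 only.

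Among the members, these differences varied with transcript length. The same correlation was not computed over all genes, so the trend cannot be called particular to the members. Over the 24 genes that reached 50 reads in both libraries, the Spearman correlation of the log2 ratio with the length of the leading spliced model, incomplete and genomic models left out, was -0.75, a description across genes that share both libraries and are not independent. Of the 8 genes under 2000 bases, 7 had a higher level in replicate 2, and their median log2 ratio was 0.19. Of the 16 genes of 2000 bases or more, 15 had a lower level in replicate 2, with a median of -0.63. Eno1, at 1733 bases and -0.84, was the short gene on the other side, and Pgm1, at 2371 bases and 0.12, the long one. For some genes the length rests on few reads. Outside incomplete and genomic models, Pfkfb4 (2847 bases) had 5 and 8 reads and Hk2 (5513 bases) had 5 and 21, in replicates 2 and 1. Signs near 0 depended on the counting: without incomplete and genomic models Pgk1 (-0.13), Gyg (-0.15) and Pgm1 (-0.68) were lower in replicate 2, and scaled by TMM Phkg1 (0.067), Pfkfb4 (0.20) and Slc2a4 (0.0016) were higher.

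**Figure D5:**
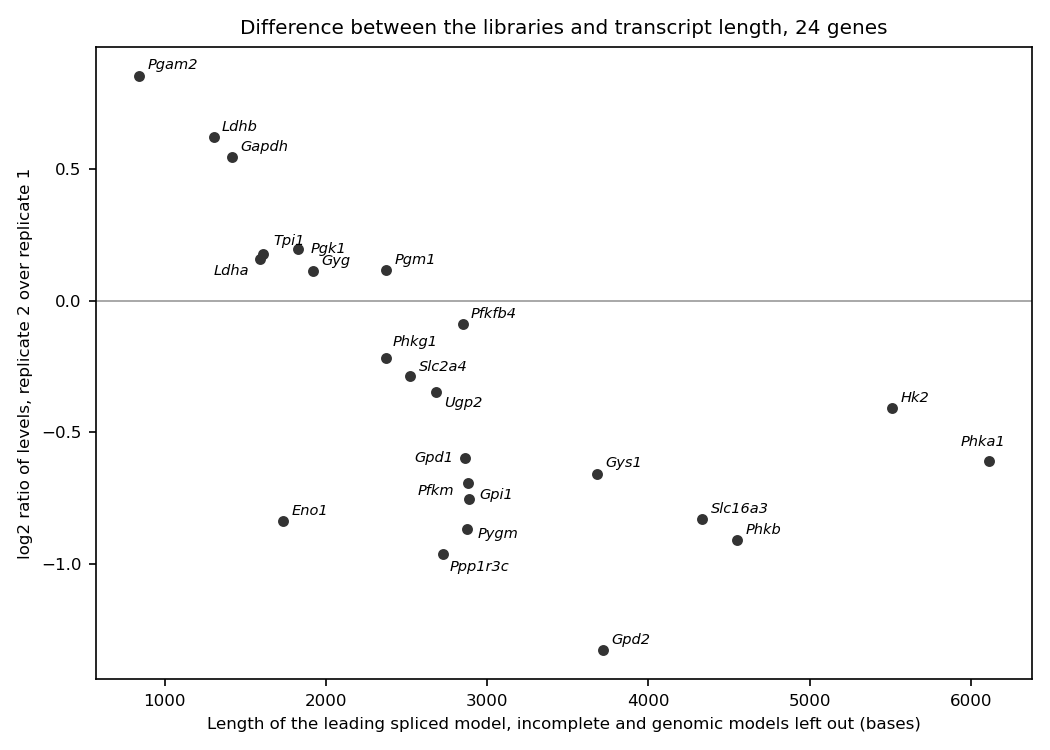
Log2 ratio of the level in replicate 2 over replicate 1 against the length in bases of the leading spliced model, incomplete and genomic models left out, for 24 genes. Genes under 2000 bases lie above 0 except Eno1 (-0.84), and genes of 2000 bases or more lie below 0 except Pgm1 (0.12).

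Gapdh, glyceraldehyde phosphate dehydrogenase (ENSMUSG00000057666.18, chr6:125161715-125166467, minus strand), is often used as a reference transcript because most cells make much of it. In these tables it had 130 reads in replicate 2 and 67 in replicate 1, or 94.6 and 64.6 CPM (79.6 ± 21.2 CPM), below the neighbouring enzymes Tpi1 and Pgk1 in both libraries. The reads were spread over 22 and 17 models, with no more than 48 and 13 in any model. The single-exon annotated Gapdh-213, of 3289 bases, held 48 and 9 reads, and the 7-exon Gapdh-203, of 1420 bases, held 16 and 13. Gapdh-201 and Gapdh-202, which begin further upstream, had 0 reads, and unannotated models held 63 and 45. Of the 2 annotated genes named Gapdh-ps and a number, Gapdh-ps15 (chrY:38619783-38620784) had 84 and 35 reads, all in its single annotated model, and Gapdh-ps14 had 0. Other genes had no read on the same strand over the Gapdh locus. How the authors' processing placed reads that match several copies is not given in the sources used here, so the Gapdh count is uncertain.

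Of 46 other genes of these pathways, 37 had reads, 21 had at least 10 in sum and 4 were called between the libraries, 3 higher and 1 lower in replicate 2, against 5.76% and 12.9% of all genes. The list holds the remaining muscle enzymes, Aldoa with 13370 and 14264 CPM, Eno3 with 10812 and 9170 CPM and Pkm with 2722 and 4434 CPM in replicates 2 and 1. Beside these, Bsg, the chaperone of lactate transporters, had 875 and 966 CPM, and Bpgm had 210.3 and 143 CPM. Stbd1, which binds glycogen, had 154 and 99.4 CPM, and the phosphatase subunits Ppp1ca and Ppp1cb had 205 and 229 CPM and 99.7 and 149 CPM. Among the called genes were Gaa, the lysosomal glucosidase, with 117 and 243 CPM (log2 ratio -1.05, adjusted p = 5.54e-12, exact binomial test), Epm2a, the glycogen phosphatase laforin, with 20 and 3 reads, and Tigar, a fructose 2,6-bisphosphatase. Tigar had 769 and 70 reads, of which 736 and 53 were in a model listed with a length of 1 base, and 23 and 16 outside genomic models. Among the 38 members, models of 1 base held 0 reads in replicate 2 and 33 in replicate 1.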

How the data were processed

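Long-read RNA sequencing was done on 2 libraries of 1 group. The deposited tables hold raw read counts per transcript model in each library, not pooled, as the authors made them; reads were on mm10 and assigned with GENCODE M21 by TALON, per the file headers. Neither the aligner nor a TALON version is named in the sources used here. Exon number and length of each model were also deposited.

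Models under a member's symbol were summed to gene counts, and spike-ins were left out. CPM used 1374068 and 1036455 reads in annotated genes (replicates 2 and 1) as totals. With 1 group of 2 libraries, edgeR's quasi-likelihood test could not be fitted. Counts were therefore compared by an exact binomial test and shares of the leading model by Fisher's exact test, each Benjamini-Hochberg adjusted over all genes. Both were run on simulated counts that held counting error only. The simulation does not show how the tests behave when libraries also vary in other ways. Ratios had 0.5 reads added. Models were matched between libraries by their junctions, and a gene's single-exon models that overlapped were joined. Intervals are Wilson 95%. Python 3.11.15, scipy 1.17.1, R 4.3.3, edgeR 4.0.16 (TMM) and DESeq2 1.42.0 (size factors) were used. Text values are given in full for the 12 highest members, sets of related genes, called members and Gapdh; other pathway genes are named if called or at a mean of at least 100 CPM. Values of 2 of these other genes are not reported here. The members and lists were chosen with earlier results of these data known. Promoter windows are from RefSeq (GRCm38.p6) and exon sequences from M21 transcripts.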

Additional observations from a re-analysis of the deposited data

Results flagged for a closer look

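Models that the tables class as antisense lie opposite many of these genes and enter none of the gene counts above. For 14 genes they held more than 3 reads in both libraries, the limit that a count of 0 allows, and this is why they are listed. Opposite Pygm there were 74 reads in replicate 2 and 11 in replicate 1, opposite Phka1 67 and 11, opposite Pfkm 61 and 12, opposite Phkg1 46 and 8, opposite Pfkfb3 44 and 7, and opposite Pgm1 36 and 9. Opposite Gyg there were 29 and 6, Ppp1r3a 28 and 5, Gbe1 26 and 6, Phkb 18 and 8, Ldha 12 and 6, Ppp1r3c 10 and 5, Slc16a3 6 and 7, and Pfkfb4 5 and 6. The reads were more in replicate 2 for 12 of the 14 genes. These are raw counts, and replicate 2 was also the deeper library, with 1374068 reads in annotated genes against 1036455. The antisense share over all genes is not given here, so the difference cannot be called particular to these genes. Opposite all 38 genes together, models of this class held 540 reads in replicate 2 and 117 in replicate 1, of which 527 and 111 were in single-exon models. How strand was assigned is not given in the sources used here, and whether these reads come from the opposite strand was not tested.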

How the results depend on the processing

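Of the counts, that of 2 members called between the libraries moved most often. It was 5 with TMM (17.6% of all genes were called) and with DESeq2 size factors (17.7%), 10 without incomplete and genomic models (23.96%; 10 lower in replicate 2), 4 without genomic models alone (23.9%), 1 with at least 50 reads in sum (22.5%), 16 at 1.5-fold (27.4%) and 2 with no minimum (9.05%). Without incomplete and genomic models, 351 of 1631 calls over all genes were higher in replicate 2, and without genomic models alone 366 of 1779. The 2 scalings moved the higher and lower calls over all genes, 480 higher of 1555, to 890 of 1470 (TMM) and 875 of 1477 (DESeq2). The count of 15 members whose leading share differed was 2 without incomplete and genomic models and 15 with at least 20 reads in each library. The summed level was 26446 CPM over all mouse reads, and 27087.5 to 28558 CPM without either replicate. The share in incomplete models was 16.8% to 20.0% without either replicate.

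Log2 ratios of members changed sign without incomplete and genomic models for Pgk1 (-0.13), Gyg (-0.15), Pgm1 (-0.68) and Ppp1r3a (-0.35), and without genomic models alone for Gyg (-0.51), Ppp1r3a (-0.22) and Ppp1r3c (0.10). They did so with TMM for Phkg1 (0.067), Pfkfb1 (0.13), Pfkfb4 (0.20) and Slc2a4 (0.0016), and with DESeq2 size factors for Phkg1 (0.051), Pfkfb1 (0.11) and Pfkfb4 (0.18). The class of some single-exon groups differed between the libraries. That of Gyg (169 and 53 reads in replicates 2 and 1) was genomic in replicate 2 and incomplete in replicate 1, and that of Ppp1r3c the reverse. Leaving out genomic models alone thus removed each of these groups from 1 library only. The causes of the sign changes were not tested. With 2 reads added, all 34 kept their direction and their side of an adjusted p of 0.05. In all 10 sets the same gene led in either library alone. No paired analysis was possible because there is 1 group. Members with few reads, such as Hk1, Pygb and Slc2a1, are limited by depth.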
